A study of Mus musculus with 12 samples.

Results

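The carboxylesterases of mouse liver are serine hydrolases that hepatocytes carry mostly in the lumen of the endoplasmic reticulum, where they split ester bonds in drugs and other foreign compounds and in stored fat. The set described here was Ces1b, Ces1c, Ces1d, Ces1e, Ces1f, Ces1g, Ces2a, Ces2e, Ces3a and Ces3b, given by symbol. These are 10 of the 14 carboxylesterase genes and of the 14195 genes in the protein-coding table, and they were represented by 17 of its 29883 transcripts. The level of a gene was the sum of the FPKM of its listed transcripts, a measure of fragments that is divided by transcript length and by library size.

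Liver RNA was sequenced from 6 PZH and 6 control mice. The mice were males aged 6 weeks at the start, of a strain the labels write as C57BL/8 and the methods of the study as C57BL/6J. Both groups received carbon tetrachloride (CCl4) in corn oil by intraperitoneal injection 2 times per week, which injures hepatocytes and leads to fibrosis. The PZH group also received PZH, a compound traditional Chinese medicine, into the stomach once per day, the control group received double distilled water in its place, and all 12 mice were killed after 8 weeks. No group without CCl4 was analysed here, so every difference is one between 2 groups of injured livers.

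As background, a carboxylesterase carries a serine, a glutamate and a histidine that act together on the ester, with the serine inside the motif Gly-X-Ser-X-Gly. Ces1d, also called triacylglycerol hydrolase, releases fatty acids from stored fat for the assembly of very low density lipoprotein (VLDL). Ces1g, also called esterase-x, acts on triacylglycerol and cholesteryl ester. Ces1c is the esterase that the mouse liver secretes into plasma, and Ces1e, also called egasyn, holds β-glucuronidase in the endoplasmic reticulum. Enzymes that stay in that compartment end in a His-X-Glu-Leu type signal.

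The 10 genes lay on chromosome 8 of GRCm38 in 2 blocks of the GENCODE M21 annotation. Ces1b to Ces1g were on the minus strand, from chr8:93056728-93080017 for Ces1b to chr8:93302369-93337308 for Ces1g. Ces2a, Ces2e, Ces3a and Ces3b were on the plus strand, from chr8:104734003-104741634 for Ces2a to chr8:105083753-105093929 for Ces3b. The motif Gly-X-Ser-X-Gly was present in the leading coding sequence of all 10 members. Its serine was at residue 221 in each Ces1 gene, 227 in Ces2a, 228 in Ces2e and 232 in both Ces3 genes, counted from the initiator methionine.

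The ends of the coding sequences show which members carry the retention signal, so 6 of them are given here, from the GENCODE M21 transcripts (5′ to 3′, the codons of the last 4 residues in capitals, followed by the stop codon).
Ces1b: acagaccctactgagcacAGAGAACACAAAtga
Ces1c: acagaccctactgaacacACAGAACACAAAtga
Ces1d: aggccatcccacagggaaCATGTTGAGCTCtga
Ces1g: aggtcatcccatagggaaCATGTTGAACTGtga
Ces2e: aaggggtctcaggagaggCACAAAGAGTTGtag
Ces3b: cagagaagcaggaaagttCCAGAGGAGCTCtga

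Read in codons, 6 members ended in His-X-Glu-Leu: Ces1d, Ces1e, Ces1f, Ces1g, Ces2a and Ces2e. Ces3a and Ces3b shared the ending printed for Ces3b, with Glu-Leu but without the histidine, and Ces1b and Ces1c did not end in Glu-Leu. Ces1b and Ces1c were also the closest pair within the Ces1 block, with 91.2% of 1662 aligned coding bases identical. The closest pair of all was Ces3a and Ces3b at 95.3%. Stretches of 150 bases that 2 members share were found in that pair alone, 45 of them, at most 2.57% of the stretches of a transcript. A fragment from such a stretch could have been assigned to either gene, so the split between Ces3a and Ces3b is less certain than that between other member genes. Stretches shared by transcripts of the same gene were not counted.

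The transcript levels of 8 of the 10 members were higher in the PZH group (limma on log2(FPKM + 1), Benjamini-Hochberg adjusted p under 0.05 over all genes), and none was lower. Among all genes tested, 12.7% were higher by the same rule and 32.1% were lower. The 3 largest differences were those of Ces1g, Ces1d and Ces2e, each above 2-fold. Ces1c and Ces2a did not pass the threshold. The median log2 fold change of the members was 0.50, beside -0.11 for all genes. The criteria of the study, a 2-fold change and an unadjusted p under 0.05, were applied here to genes with the limma p. By them 3 members were higher, beside 1.51% of all genes. In those 3 members every PZH mouse was above every control mouse, beside 6.46% of all genes.

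**Figure D1:**
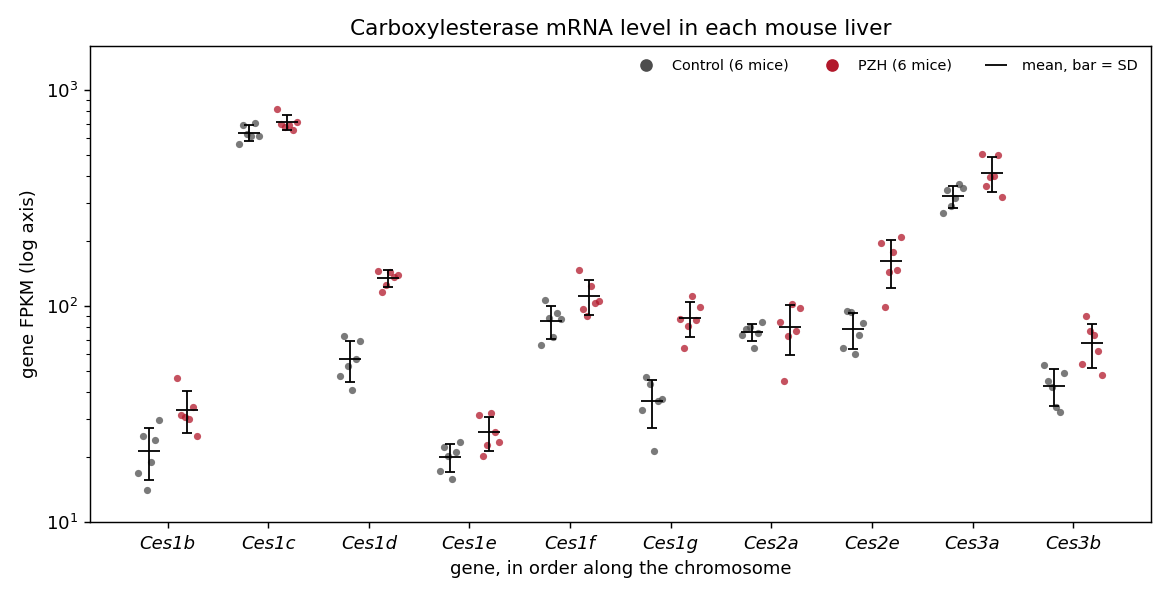
FPKM of the 10 carboxylesterase genes in each mouse on a log axis, with a point per mouse and the mean and SD of 6 mice per group. The points of the groups are apart for Ces1d, Ces1g and Ces2e and overlap for the other 7 genes.

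Ces1d ranged from 116 to 146 FPKM in the PZH mice, with a median of 138, and from 40.9 to 72.4 FPKM in the control mice, with a median of 54.9. The groups did not overlap, and the lowest PZH mouse was well above the highest control mouse. The means were 135 ± 11.7 and 56.6 ± 12.2 FPKM (SD, n = 6 each), a log2 fold change of 1.26 (SE of 0.13 and limma adjusted p = 2.28e-05).

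Ces1g ranged from 64.2 to 111 FPKM in the PZH mice, with a median of 87.0, and from 21.3 to 47.2 FPKM in the control mice, with a median of 36.8. Here too the groups were apart, with PZH mouse 2 closest to the control mice. The means were 88.2 ± 16.0 and 36.5 ± 9.04 FPKM (SD, n = 6 each), a log2 fold change of 1.27 (SE of 0.18 and limma adjusted p = 0.000126). Ces1d and Ces1g kept nearly the same ratio in both groups, with a mean of 0.652 Ces1g per Ces1d in the PZH mice and 0.645 in the control mice. The 2 ratios differed by less than the spread between mice (two-sided exact permutation test, p = 0.831).

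Ces2e, a relative of the human intestinal and liver enzyme CES2, ranged from 98.7 to 209 FPKM in the PZH mice, with a median of 162. In the control mice it ranged from 59.9 to 95.1 FPKM, with a median of 78.5. The margin was narrow, since PZH mouse 2 at 98.7 FPKM was just above the highest control mouse. The means were 162 ± 40.3 and 78.4 ± 15.0 FPKM (SD, n = 6 each), a log2 fold change of 1.02 (SE of 0.18 and limma adjusted p = 0.000571).

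Ces3b and Ces1b rose by less, and their groups overlapped. Ces3b ranged from 48.0 to 89.8 FPKM (median 67.6) in PZH mice and from 32.4 to 53.6 FPKM (median 43.8) in the control mice, with a log2 fold change of 0.63 (SE of 0.16 and limma adjusted p = 0.00699). Ces1b ranged from 25.1 to 46.7 FPKM (median 31.1) in PZH mice and from 14.2 to 29.6 FPKM (median 21.4) in the control mice, with a log2 fold change of 0.62 (SE of 0.18 and limma adjusted p = 0.0122). For both genes the lowest PZH mouse was mouse 6, inside the range of the control mice.

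Ces1e, Ces1f and Ces3a had the smallest called differences. Ces3a, the second most abundant member, ranged from 319 to 508 FPKM (median 397) in PZH mice and from 269 to 366 FPKM (median 330) in the control mice. Its log2 fold change was 0.34 (SE of 0.12 and limma adjusted p = 0.0345). Ces1f, a lipase of hepatocyte fat stores, had a mean of 111 FPKM in the PZH mice and 85.5 FPKM in the control mice, with a log2 fold change of 0.38 (limma adjusted p = 0.0377).

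Egasyn, Ces1e, had a mean of 26.0 FPKM in the PZH mice and 20.1 FPKM in the control mice, with a log2 fold change of 0.35 (limma adjusted p = 0.0360). These 3 calls were lost in several alternatives. The adjusted p was above 0.05 for all 3 without PZH mouse 1, PZH mouse 4, control mouse 1, control mouse 3 or control mouse 4, and in each of these the count of called members was 5. It was also 5 when the FPKM were divided by the geometric mean of 9 hepatocyte markers of each mouse. Ces1b, Ces1d, Ces1g and Ces2e were called in each of the 21 alternatives tried.

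Ces1c, the secreted esterase, was the most abundant member in every mouse. It ranged from 656 to 819 FPKM (median 696) in PZH mice and from 560 to 706 FPKM (median 620) in the control mice. The log2 fold change was 0.16 (SE of 0.07 and limma adjusted p = 0.0904), and the PZH range owed its upper end to mouse 1. Ces2a ranged from 44.9 to 103 FPKM (median 80.4) in PZH mice and from 64.3 to 84.8 FPKM (median 76.4) in the control mice. Its log2 fold change was 0.03 (SE of 0.17 and limma adjusted p = 0.895), and both the highest and the lowest of the 12 values were in PZH mice. An SE of that size leaves room for a moderate difference in either direction.

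**Figure D2:**
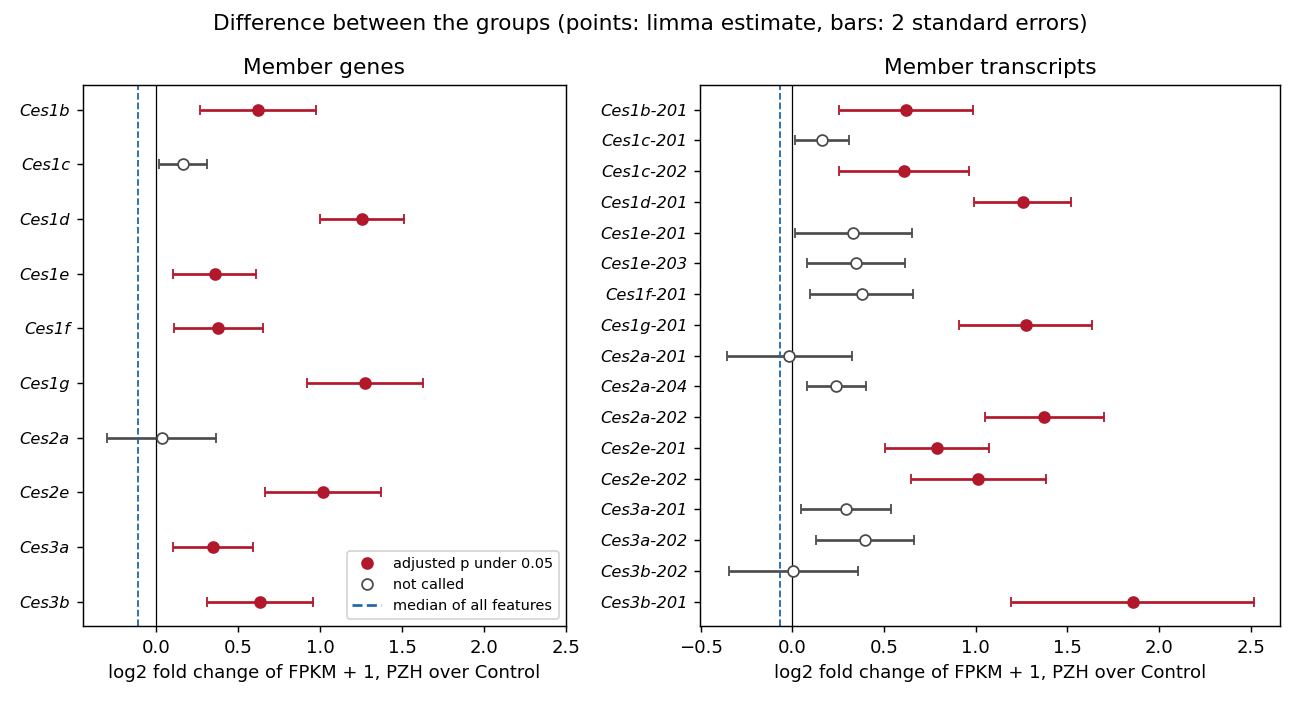
Log2 fold change of FPKM + 1, PZH over control, for the 10 genes (left) and their 17 listed transcripts (right), with bars of 2 standard errors on each side and the median of all features as a dashed line. Filled points passed the adjusted threshold, 8 genes and 8 transcripts, and Ces3b-201 lies farthest to the right.

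Ces2a and Ces2e lie in the same block, with Ces2b, Ces2c and the pseudogene Ces2d-ps between them, and their ratio separated the groups. The PZH mice held 1.73 to 2.32 times as much Ces2e as Ces2a, with a median of 2.04. The control mice held 0.873 to 1.22 times as much, with a median of 0.983. The ratio does not depend on how a library is scaled, and the means of 2.04 and 1.03 differed in the two-sided exact permutation test (p = 0.002165, the smallest that relabelling the 12 mice allows). The 5 ratios tested included Ces1d over Ces1c, with means of 0.190 and 0.0892 (p = 0.002165), Ces1b over Ces1c, with 0.0464 and 0.0337 (p = 0.0260), and Ces3b over Ces3a, with 0.168 and 0.135 (p = 0.255), all by the same exact test and unadjusted.

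The start regions of Ces2a and Ces2e are shown because these members of the Ces2 group had unlike values, and that of Ces3b for its motifs. Windows from RefSeq (GRCm38.p6) matched 7 of the members, Ces1b, Ces1c, Ces1e, Ces1g, Ces2a, Ces2e and Ces3b. Ces1d, Ces1f and Ces3a were not matched. The 100 bases before the annotated start of each gene are printed 5′ to 3′, with CCAAT and TATAAA in capitals.
Ces2a, chr8:104733903-104734002, plus strand: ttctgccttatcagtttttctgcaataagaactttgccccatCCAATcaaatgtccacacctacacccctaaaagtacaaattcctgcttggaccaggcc
Ces2e, chr8:104926160-104926259, plus strand: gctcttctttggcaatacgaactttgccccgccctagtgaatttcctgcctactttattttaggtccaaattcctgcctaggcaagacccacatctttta
Ces3b, chr8:105083653-105083752, plus strand: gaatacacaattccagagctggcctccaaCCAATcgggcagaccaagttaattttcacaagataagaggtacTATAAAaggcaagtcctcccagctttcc

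The Ces2a and Ces2e stretches had 66.3% of 89 aligned bases in common, and the longest run they shared was the 12 bases gaactttgcccc. On either strand of the full window of 300 bases, CCAAT was found in 5 of the 7 members, Ces1b, Ces1c, Ces1g, Ces2a and Ces3b, and in 37.4% of all 32851 windows. Ces1b had 2 windows, one from its GENCODE start and one from a RefSeq start 77 bases inside the gene, and both hold the same CCAAT match. The RefSeq start of Ces1g lies 99 bases inside the GENCODE gene and that of Ces3b 2 bases inside, while the other 4 members have the same start in both. TATAAA was found in Ces1g and Ces3b and in 13.6% of all windows. Single patterns for the HNF1, C/EBP, FXR, PXR and NRF2 sites and a pair for HNF4 had no match in the windows of the 7 members, which says only that those letters are not in these windows. The same patterns were found in 0% to 12.4% of all windows.

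At the level of single transcripts, 8 of the 17 were higher by adjusted p, beside 5.73% of all transcripts. By the criteria of the study 5 were higher, beside 1.24% of all transcripts. These 5 were Ces1d-201, Ces1g-201, Ces2a-202, Ces2e-202 and Ces3b-201. The log2 fold change was above 0 in 16 of the 17, and the exception, Ces2a-201, was at -0.02. Transcripts of the same gene share exons, and how surely fragments were split between them was not tested. Levels and shares of single transcripts are therefore less certain than gene levels.

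Ces3b had 2 listed transcripts, of which Ces3b-201 passed the threshold and Ces3b-202 did not. Ces3b-201 lacks exon 11 of Ces3b-202, which is 150 bases at chr8:105092605-105092754 and leaves the reading frame intact. Ces3a has an alternative of the same kind: Ces3a-202 lacks exon 8 of Ces3a-201, 141 bases at chr8:105053544-105053684. Both exons are printed because each holds a codon for a residue of the catalytic triad, in capitals: the glutamate codon in Ces3a exon 8, residue 347, and the histidine codon in Ces3b exon 11, residue 460. The residues were located by the match of the translated sequence to the family pattern.
Ces3a exon 8: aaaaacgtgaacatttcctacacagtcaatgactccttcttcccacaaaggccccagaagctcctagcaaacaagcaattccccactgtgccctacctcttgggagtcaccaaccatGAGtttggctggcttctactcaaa
Ces3b exon 11: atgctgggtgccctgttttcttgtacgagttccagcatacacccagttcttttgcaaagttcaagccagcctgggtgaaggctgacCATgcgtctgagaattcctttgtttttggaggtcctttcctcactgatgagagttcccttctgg

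Ces3b-201, without exon 11, was at 30.7, 35.0, 35.1, 36.6 and 40.7 FPKM in 5 PZH mice and at 9.76 FPKM in PZH mouse 6. In the control mice it ranged from 3.86 to 10.8 FPKM, with a median of 7.80. Thus 5 PZH mice were far above all control mice and the sixth was among them. The means were 31.3 ± 11.0 and 7.60 ± 2.67 FPKM (SD, n = 6 each), a log2 fold change of 1.86 (SE of 0.33 and limma adjusted p = 0.00214), the largest among the 17 transcripts.

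Ces3b-202, with exon 11, had means of 36.0 ± 9.50 FPKM in the PZH mice and 35.2 ± 5.92 FPKM in the control mice (SD, n = 6 each), a log2 fold change of 0.00 (SE of 0.18 and limma adjusted p = 0.992). As a share of the gene, Ces3b-201 made up 20.3% to 56.8% in the PZH mice, with a median of 47.8%, and 11.3% to 21.9% in the control mice, with a median of 17.8%. The difference of the mean shares was 28.4 percentage points and did not pass the threshold (limma on the share in percent, adjusted p = 0.0680). Without PZH mouse 6 it was 33.5 points, with an adjusted p of 0.000917, and over all mice with a filter at a mean FPKM of 1 the adjusted p was 0.0476. When the gene was represented by its most abundant transcript alone, its adjusted p was 0.989.

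**Figure D3:**
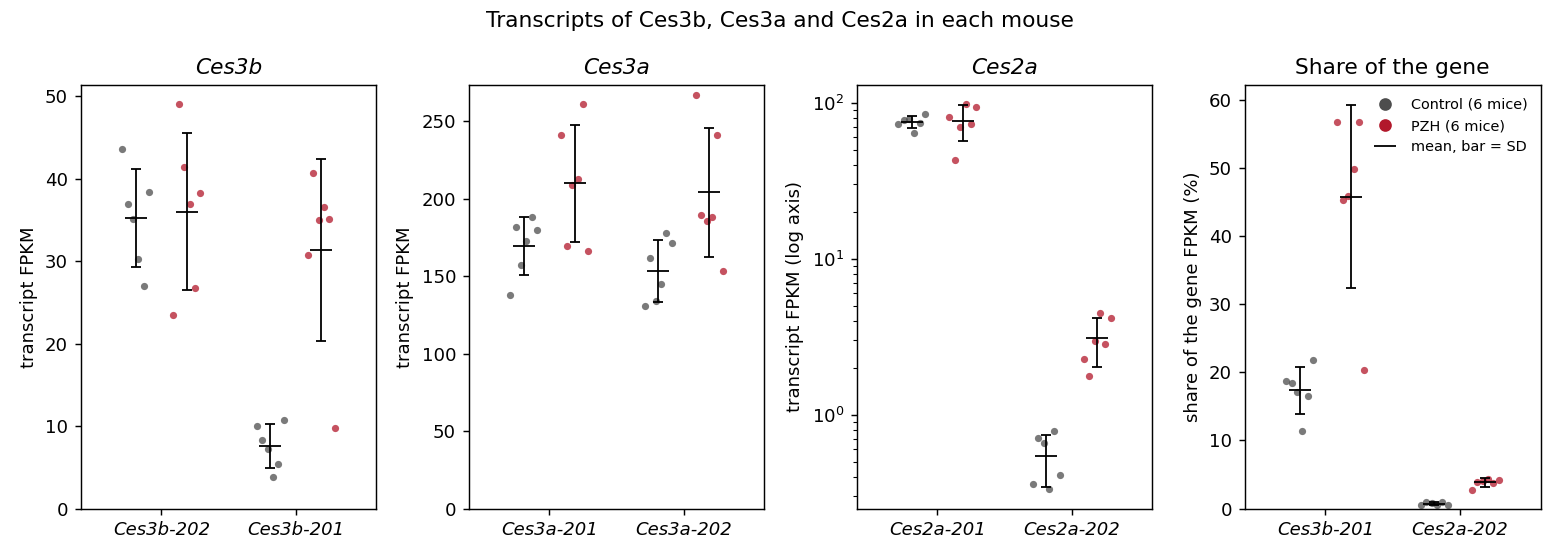
Transcripts of Ces3b, Ces3a and Ces2a in each mouse as FPKM (first 3 panels, the third with a log axis), and the share of Ces3b-201 and Ces2a-202 in their gene in percent (last panel), with the mean and SD of 6 mice per group. Ces3b-201 is high in 5 PZH mice and low in mouse 6, the values of Ces3b-202 and Ces2a-201 overlap between the groups, and the 2 transcripts of Ces3a stay near equal shares.

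The 2 transcripts of Ces3a were near equal in both groups. Ces3a-202, without exon 8, made up 47.0% to 52.8% of the gene in PZH mice and 45.6% to 48.8% in controls (limma on the share, adjusted p = 0.680). Ces3a-201 had a log2 fold change of 0.29 (adjusted p = 0.126) and Ces3a-202 of 0.40 (adjusted p = 0.0602), so neither passed the threshold alone.

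Ces2a-202 differed although Ces2a as a whole did not. It is annotated without a known 5′ end, has 3 exons between 104739608 and 104741277 on chromosome 8, and reads through the 395 bases of the intron between exons 11 and 12 of Ces2a-201 at chr8:104740835-104741229. Its level ranged from 1.77 to 4.48 FPKM (median 2.91) in PZH mice and from 0.332 to 0.781 FPKM (median 0.537) in the control mice, with no overlap. The log2 fold change was 1.38 (SE of 0.16 and limma adjusted p = 0.000224).

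The share of Ces2a-202 in its gene rose from 0.712% ± 0.246 to 3.84% ± 0.597 (SD, n = 6 each; limma adjusted p = 0.0278). The share of Ces2a-201, the full-length transcript, fell from 99.2% ± 0.283 to 95.9% ± 0.581 (adjusted p = 0.0176). These were the 2 called shares among the 13 of the members, beside 0.345% of the 21454 shares tested in all. They belong to the same gene and a rise of one is nearly the fall of the other, so they are a single observation. Both calls depend on the settings. That of Ces2a-202 was lost in 10 of the 16 alternatives: without PZH mouse 3, 4, 5 or 6 or control mouse 1, 4, 5 or 6 (adjusted p = 0.0538 to 0.0705), with a filter at a mean FPKM of 1 (0.0710) and with a block for the mouse number (0.330). That of Ces2a-201 was lost in 3, without control mouse 1 (0.0529), with the filter (0.0560) and with the block (0.310). With the filter the 2 called shares were those of the Ces3b transcripts (adjusted p = 0.0476), which mirror each other and are likewise a single observation.

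Ces2e-201 and Ces2e-202 have the same coding sequence, and Ces2e-202 made up 97.4% to 98.6% of the gene over the 12 mice. Both were higher, with a log2 fold change of 0.79 for Ces2e-201 (limma adjusted p = 0.00218) and 1.01 for Ces2e-202 (limma adjusted p = 0.00242). Ces1e-201 and Ces1e-203 differ by 3 coding bases, and Ces1e-203 made up 77.7% to 86.7% of the gene. Ces1c-202, a short transcript of 0.439 to 2.67 FPKM that made up less than 0.4% of the gene, was called higher, with a log2 fold change of 0.61 (limma adjusted p = 0.0312). Ces1b-201 was called with 0.62, and these calls were lost in 9 of 20 alternatives for Ces1c-202 and 10 of 20 for Ces1b-201. Ces2a-204, which lacks exon 6, stayed below 1 FPKM in every mouse.

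In levels per length, Ces1c was the most abundant member in every mouse of both groups, and Ces3a was second. In the control group the order below them was Ces1f, Ces2e, Ces2a, Ces1d, Ces3b, Ces1g, Ces1b and Ces1e. In the PZH group it was Ces2e, Ces1d, Ces1f, Ces1g, Ces2a, Ces3b, Ces1b and Ces1e. Neighbours in these orders were compared within the 6 mice of a group by a two-sided exact sign-flip permutation test, which cannot go below 0.03125. In the control group Ces1f and Ces2e, Ces2e and Ces2a, Ces1d and Ces3b, Ces3b and Ces1g, and Ces1b and Ces1e did not differ beyond their spread, with exact p = 0.156, 0.781, 0.0625, 0.25 and 0.688 in this order. In the PZH group the same held for Ces2e and Ces1d, Ces1d and Ces1f, Ces2a and Ces3b, and Ces1b and Ces1e, with exact p = 0.125, 0.0625, 0.469 and 0.0938.

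**Figure D4:**
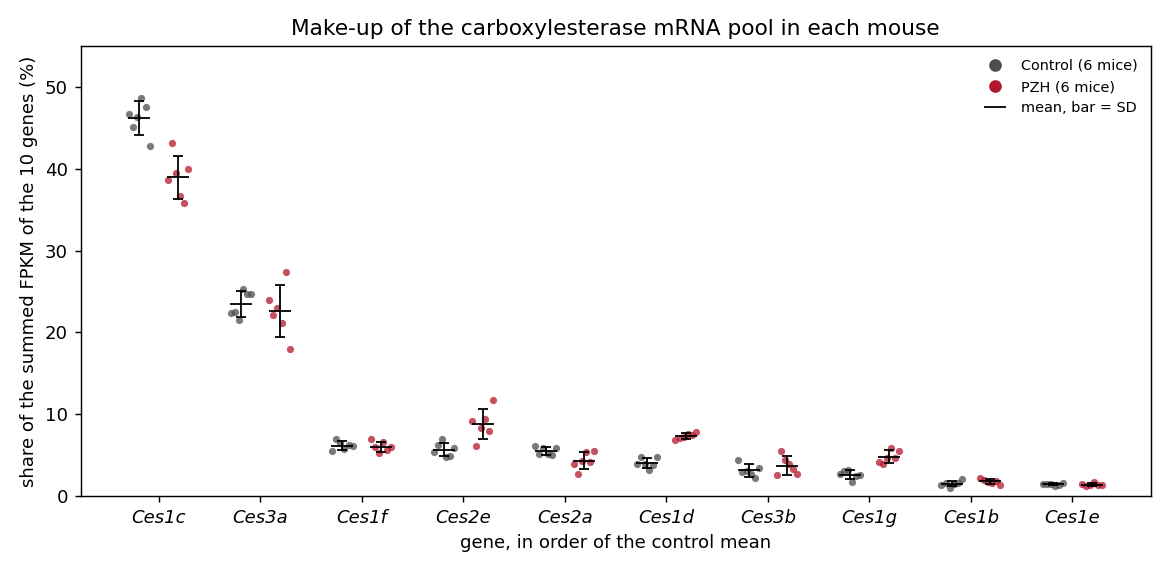
Share of each gene in the summed FPKM of the 10 genes in each mouse, in percent, ordered by the control mean, with the mean and SD of 6 mice per group. The share of Ces1c is lower and those of Ces2e, Ces1d and Ces1g are higher in the PZH mice.

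The summed FPKM of the 10 genes was 1621 to 2119 in the PZH mice (median 1804) and 1201 to 1521 in the control mice (median 1391), with no overlap. The ratio of the means was 1.33, and the log2 difference of 0.41 became 0.60 with a median-ratio scale factor and 0.25 with the hepatocyte marker scale. The sum made up 0.497% to 0.572% of all protein-coding FPKM in PZH mice and 0.362% to 0.457% in controls. Liver was sampled whole, so a larger number of hepatocytes and more RNA per hepatocyte cannot be told apart.

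The make-up of this pool differed between the groups. Shares are parts of a sum, so a rise of some members lowers the shares of the others. In FPKM, Ces1c was not lower in the PZH mice, with a log2 fold change of 0.16. The share of Ces1c was 39.0% ± 2.61 in the PZH mice and 46.2% ± 2.05 in the control mice (SD, n = 6 each; two-sided exact permutation test, p = 0.00433). The share of Ces1d was 7.38% ± 0.342 against 4.09% ± 0.603, and that of Ces1g 4.83% ± 0.766 against 2.64% ± 0.544 (each p = 0.002165 by the same exact test). The share of Ces2e was 8.81% against 5.69% (exact p = 0.00649), and that of Ces2a was 4.36% against 5.55% (exact p = 0.0238). The Ces2a value rose to p = 0.0541 without PZH mouse 2 and to 0.0520 without control mouse 1 by the same exact test. The p-values of the other 5 members were 0.184 to 0.729 by the same exact test, and all 10 are unadjusted.

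Summed over the 6 members that end in His-X-Glu-Leu, the mean was 602 ± 102 FPKM in the PZH mice and 353 ± 55.4 FPKM in the control mice, and the groups did not overlap. Over Ces1b and Ces1c, which do not end in Glu-Leu, it was 742 ± 62.9 and 655 ± 56.3 FPKM, with overlap. Most of this second sum was Ces1c. Single members did not divide by their ending, since Ces1b was called higher and Ces2a, which ends in His-X-Glu-Leu, was not called. These sums describe the members and carry no test.

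**Figure D5:**
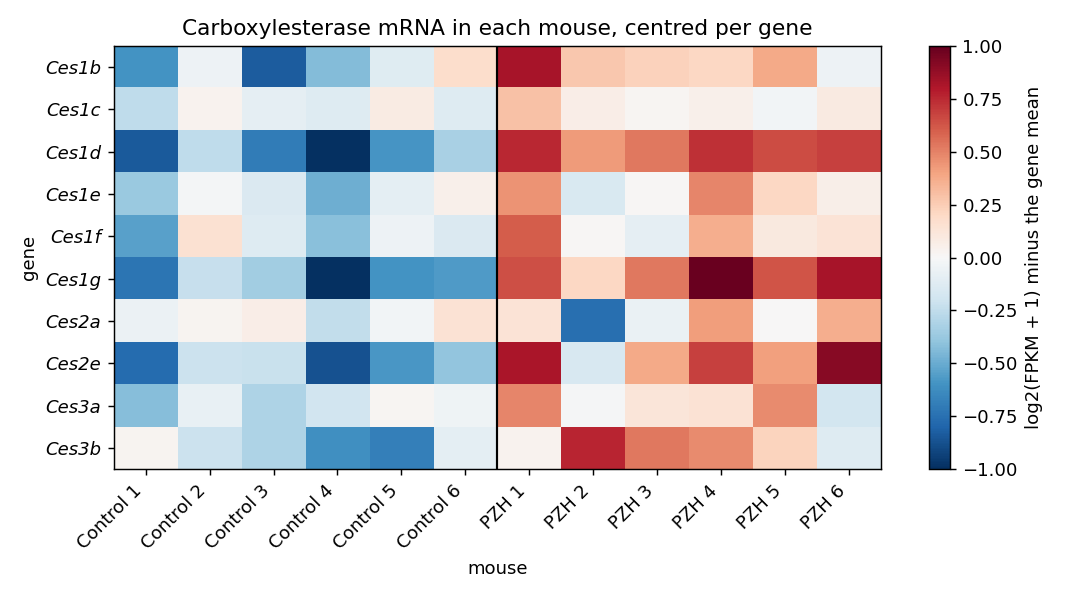
Level of each gene in each mouse as log2(FPKM + 1) minus the mean of the gene over the 12 mice, with genes in chromosomal order and the groups separated by a line. Red is above and blue below the mean of the gene, and PZH mouse 2 is low for Ces2a while Ces1d and Ces1g are red in all 6 PZH mice.

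Within the groups the members did not all follow the same mice. PZH mouse 1 was the highest of its group for 5 members, Ces1b, Ces1c, Ces1d, Ces1f and Ces3a. PZH mouse 2 was the lowest for 5, Ces1d, Ces1e, Ces1g, Ces2a and Ces2e, yet it was the highest for Ces3b. Control mouse 4 was the lowest for the same 5 members as PZH mouse 2, and control mouse 2 was the highest for Ces1d, Ces1f, Ces1g and Ces2e.

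The pattern of the members was compared over the 12 mice by the root mean square difference of their centred log2(FPKM + 1), where a smaller value is more alike. Ces1e and Ces1f were the closest pair at 0.129, and Ces1d and Ces1g were each nearest to the other at 0.187. Ces3b had the least similar nearest member, Ces1e at 0.399. Among 3873 genes outside the family with a mean of at least 10 FPKM, the 5 most like the summed level of the members were Pemt, Il1rap, Glyat, Ndufv3 and Mut, at 0.0838 to 0.0912. Pemt makes phosphatidylcholine in hepatocytes, and it had a mean of 151 FPKM in the PZH mice and 117 FPKM in the control mice.

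Of the 4 further carboxylesterases listed, Ces2g and Ces2c were higher. Ces2g had 17.3 to 23.9 FPKM in PZH mice and 7.67 to 13.9 FPKM in controls, with a log2 fold change of 0.997 (limma adjusted p = 0.000129). Ces2c had 7.30 to 21.7 and 4.89 to 11.5 FPKM, with a log2 fold change of 0.77 (limma adjusted p = 0.0199). Ces1a and Ces4a stayed below 1 FPKM in all 12 mice and were not called. Ces1h, Ces2b, Ces2f, Ces2h and Ces5a were not analysed here.

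Genes that act beside the carboxylesterases were counted by lists. Each count is to be read beside the 12.7% of all genes that were higher and the 32.1% that were lower. Of 12 neutral lipid lipases, 4 were higher and none was lower. Lipg, the endothelial lipase, had a log2 fold change of 0.96, and Aadac, a deacetylase of the endoplasmic reticulum that acts on similar esters, had 0.89 (limma adjusted p = 0.000768 and 0.000298). Of 10 other xenobiotic and ester hydrolases, 6 were higher and 1 was lower, and with the hepatocyte marker scale 3 were higher and 2 were lower, since Ephx2, Bche and Bphl were no longer called. Cmbl, a hydrolase of prodrug esters, had a log2 fold change of 1.25 and Fahd1 of 0.88, while Pon2 was at -0.25 (limma adjusted p = 0.000164, 0.000646 and 0.00652).

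Of 11 lipid droplet proteins, 2 were higher and 5 were lower. Plin2, the coat protein of hepatocyte droplets, had 108 to 126 FPKM in PZH mice and 316 to 675 FPKM in controls, a log2 fold change of -1.99 (limma adjusted p = 7.18e-06). Hilpda, an inhibitor of fat breakdown, was at -1.89 (limma adjusted p = 5.62e-05). Plin5 and Cideb were higher, at 0.81 and 0.74 (limma adjusted p = 0.000168 and 0.000406). Of 9 genes of VLDL assembly, 3 were higher and 2 were lower. With the hepatocyte marker scale 2 were higher and 2 were lower, since Dgat2 was no longer called. Sar1b and Mttp, which loads lipid onto apolipoprotein B, had log2 fold changes of 0.75 and 0.53, and Surf4 and Dgat1 of -0.55 and -0.18 (limma adjusted p = 0.00102, 0.0001, 0.000231 and 0.0495).

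Of 14 regulators of liver transcription, 5 were higher and 2 were lower. The nuclear receptors that sense foreign compounds, Nr1i3 (CAR) and Nr1i2 (PXR), had log2 fold changes of 1.15 and 0.74. The bile acid receptor Nr1h4 (FXR) had 0.98 and the fatty acid receptor Ppara 0.92 (limma adjusted p = 0.00278, 0.00102, 8.98e-05 and 0.000535 in this order). Hnf4a was at -0.30 and Nr1h2 at -0.28 (limma adjusted p = 0.00937 and 0.0386). Of the 4 genes of the retention list, Gusb, the partner of egasyn, was higher by 0.28, while the retention receptors Kdelr3 and Kdelr2 were at -0.48 and -0.36 (limma adjusted p = 0.0188, 0.0266 and 0.00578). The calls of Dgat1, Pon2, Hnf4a, Nr1h2, Kdelr2 and Kdelr3 were lost with a median-ratio scale factor, and that of Gusb with an equal FPKM sum per mouse and with the hepatocyte marker scale.

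The scale of the libraries moves with the group, and so do markers of hepatocytes. The median log2 fold change of all genes was -0.11 with the deposited FPKM, and a median-ratio scale factor moved it by 0.11. Division by the hepatocyte markers moved it by -0.10. Of all called genes 28.3% were higher with the deposited values, 49.5% with the median-ratio factor and 16.9% with the hepatocyte marker scale. The number of called members, all higher, was 8, 9 and 5 in the same order. Of all 14195 genes tested, 1798, 2735 and 1178 were higher in that order.

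Of 9 hepatocyte markers listed, 5 were higher and 2 were lower, beside 12.7% and 32.1% of all genes. Their summed level was 47169 to 63192 FPKM in PZH mice and 32490 to 44367 FPKM in controls. Most of that sum was Alb, with means of 38437 and 24059 FPKM. The 2 lower markers were Fgb and Hpx, so the sum does not describe the list as a whole. Of 7 pericentral hepatocyte markers 4 were higher, with a sum of 1018 to 2048 against 298 to 513 FPKM. Most of that sum was Cyp2e1, with means of 972 and 206 FPKM, and Cyp1a2, with 405 and 95.9 FPKM. Glul, Oat and Rhbg were not called, and with the hepatocyte marker scale 3 were higher, since Lgr5 was no longer called. Of 8 periportal markers 4 were higher, with a sum of 1612 to 2499 against 1361 to 1664 FPKM. The part of hepatocyte content and zone in the levels of the carboxylesterases was not tested. The ratios and shares among the members do not move with a scale common to all genes.

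Markers of other cell types did not separate the groups in their sums, but some single markers did. Marco and Sox9 had log2 fold changes of -2.21 and -1.64 (limma adjusted p = 0.000703 and 5.16e-06). For these and for Lyve1 and Pecam1 every PZH mouse was below every control mouse. For Clec4f and Vsig4 every PZH mouse was above every control mouse. The calls of Pecam1, Cd68 and Fabp4 were lost with the median-ratio scale factor. Those of Clec4f, Csf1r and Col3a1 were lost with the hepatocyte marker scale. Macrophage markers had 3 higher and 2 lower of 8, and 1 higher and 2 lower with the hepatocyte marker scale, with sums of 306 to 471 FPKM in PZH mice and 312 to 413 FPKM in controls. Stellate cell and fibroblast markers had 1 higher and 2 lower of 8, with 284 to 366 and 220 to 342 FPKM. Neutrophil markers had 2 lower of 6, with 13.4 to 141 and 19.1 to 64.6 FPKM, and endothelial markers had 2 lower of 6, with 93.5 to 120 and 99.9 to 117 FPKM. Cholangiocyte markers had 1 lower of 5, with 66.9 to 133 and 96.9 to 161 FPKM, and adipocyte markers had 1 lower of 2 listed, with 6.73 to 8.26 and 7.04 to 17.1 FPKM. None of 6 lymphocyte markers was called, and their sum stayed below 4 FPKM in every mouse. Among all genes 12.7% were higher and 32.1% were lower, so the small counts in these lists do not set them apart.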

How the data were processed

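The authors prepared strand-specific libraries from ribosome-depleted liver RNA of 12 mice. The authors trimmed reads with Trimmomatic, mapped them to GRCm38 with HISAT2 and assembled transcripts with StringTie, per the labels. The authors deposited FPKM per protein-coding transcript and mouse, scaled by transcript length and by library size. These are not counts, and the lncRNA table was not used here.

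Columns were assigned by the group and number in their names. Transcripts were summed to genes by GENCODE M21, which held 29876 of 29883 transcripts. limma 3.58.1 in R 4.3.3 with variance moderation was fitted to log2(FPKM + 1), with a pseudocount of 1, over all genes, all transcripts and, in percent, all isoform shares, with Benjamini-Hochberg adjustment over each. Fold changes are on that scale and understate low genes. Single values were compared by two-sided exact permutation over all labellings of the mice, with no p below 0.0022. The labels do not say whether mice of a group shared a cage or batch. The rest was done in Python 3.11.15 (Biopython 1.88, pandas 2.3.3, matplotlib 3.10.9, scipy 1.17.1 and numpy 2.4.6).

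The most common step among low FPKM values would correspond to 26.8 M to 42.8 M fragments per mouse, but it rests on 22 to 40 values per mouse. At most 2.50% of the low values were whole multiples within 0.005, so counts were not recovered and intervals from counting are not available.

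The members, gene lists and tests were chosen with earlier results of these data known. Named genes were all members and their transcripts, up to 2 called genes in each direction per list by size of change, single partners by name (Gusb, Aadac, Nr1i2, Nr1i3, Nr1h4, Hnf4a, Ppara), and the 5 genes nearest in pattern. Alb and the markers of other cell types without overlap between the groups were named as well. Alternatives tried were 3 scalings, a smaller pseudocount (0.1), a filter at a mean FPKM of 1, no variance moderation, a mean-variance trend, a block for the mouse number, the most abundant transcript per gene, and the omission of each mouse. The scale by hepatocyte markers used 9 of the 10 listed. The fit was tested on simulated data with planted changes larger than that of any member gene. That test therefore says nothing about calls of smaller differences. Mice with the same number in both groups did not deviate together, so the main fit had no block.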

Additional observations from a re-analysis of the deposited data

Results flagged for a closer look

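Of 68 groups of 6 values tested for a single mouse far from the rest, 3 stood out. That is no more than the 1 in 20 or so that chance gives. Ces1c had 819 FPKM in PZH mouse 1, while the other 5 PZH mice had 656 to 710 FPKM. The same mouse stood out for its main transcript Ces1c-201, with 817 FPKM against 655 to 709 FPKM, so these are 1 observation. PZH mouse 1 was also the highest PZH mouse for 4 further members.

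Ces3b-201, the transcript without exon 11, had 9.76 FPKM in PZH mouse 6, while the other 5 PZH mice had 30.7 to 40.7 FPKM. The value lay within the range of the control mice, and the reason was not tested.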

How the results depend on the processing

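The count of 8 called member genes became 5 with the hepatocyte marker scale, without variance moderation and with the replicate block, 4 with the most abundant transcript per gene, and 5 to 8 when a mouse was left out. The member transcripts called rose from 8 to 14 with the median-ratio scale factor, and those called by the criteria of the study from 5 to 8 with a pseudocount of 0.1. Over all 29883 transcripts the calls higher rose as well, from 1712 to 2564 and from 372 to 1070 in the same order. The 2 called isoform shares fell to 0 with the replicate block and ranged from 0 to 3 when a mouse was left out. The log2 difference of the summed carboxylesterase FPKM was 0.41, and it was 0.60 with the median-ratio scale factor and 0.25 with the hepatocyte marker scale. Of the shares in the sum, 5 of 10 had an exact permutation p under 0.05, and 3 with the replicate block. The cause of these changes was not tested. No called value changed direction in any alternative. The number of a mouse did not pair the groups: the correlation of same-numbered mice was -0.073 to 0.075, and 1 of 6 PZH mice correlated best with its own number. Depth cannot be separated from the spread between mice, since counts were not recovered.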
